A study of Homo sapiens with 16 samples.

Results

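The PMA response of the THP-1 line labelled shDNMT3B is described here across all genes: 2 libraries of cells kept in PMA against 2 libraries of the same line kept in DMSO, 4 of the 16 libraries of the series. THP-1 is a human acute monocytic leukemia cell line that carries the MLL-AF9 fusion and grows in suspension, and PMA (phorbol-12-myristate-13-acetate) turns it into adherent, macrophage-like cells. The line was made with a lentiviral pLKO.1 vector that expresses a short hairpin RNA against DNMT3B, a DNA methyltransferase of the de novo kind, followed by puromycin selection, so each line is a selected population that carries an integrated vector. Its cells received 100 ng/ml PMA or the solvent DMSO for 48 h. The remaining 12 libraries come from the lines labelled shDNMT1, shUHRF1 and shNC, the last with a non-targeting hairpin, under the same pair of conditions and with 2 libraries in each group. The members were taken by the condition written in the column names of the count table, because the free-text descriptions of 12 of the 16 samples disagree with their titles. The sources do not say whether the 2 libraries of a group came from separate cultures. The p-values here measure against the spread within groups, estimated over all 16 libraries, which may be technical. In the main fit this spread includes differences that go with the replicate number, a pairing that the fit ignores.

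PMA is a stable mimic of diacylglycerol. It holds protein kinase C in its active form at the membrane, and signaling runs on through RAS guanine nucleotide exchange factors, the ERK kinases, AP-1 and NF-kB. In monocytic leukemia cells this is known to stop proliferation and to start adhesion, phagocytosis, lysosome formation and cytokine release. Levels below are counts per 1000000 of a TMM-scaled library (CPM), given for PMA replicate 1 and 2 and then for DMSO replicate 1 and 2. Each log2 fold change is PMA minus DMSO from edgeR's quasi-likelihood test over 16503 genes, with its standard error (SE) and a p-value adjusted over all of these genes. "Rose" and "fell" stand for an adjusted p under 0.05. Over all of these genes 25.2% rose and 19.7% fell, and the list counts of rises and falls below are to be read beside these shares.

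DNMT3B, the gene the hairpin was designed against (chromosome 20, 32762385 to 32809359 in hg38), had 2.74 and 3.19 CPM in PMA, against 6.40 and 6.87 CPM in DMSO. The groups did not overlap, and the gene fell (log2 fold change -1.16, SE 0.21, adjusted p = 5.74e-04). Set against the line labelled shNC, the level in the libraries labelled shDNMT3B was higher in PMA (shNC 1.26 and 1.59 CPM, log2 difference 1.06, adjusted p = 0.00688). In DMSO it lay below that of shNC (8.73 and 9.73 CPM, log2 difference -0.48), and this difference missed the threshold (adjusted p = 0.212). The transcript thus goes against the label in PMA. In DMSO both libraries labelled shDNMT3B lay below both of shNC, without a call in this fit. The name shDNMT3B is used below as a label only. These polyadenylated RNA counts say nothing of the protein, for which the study shows a western blot of knockdown efficiency.

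The cells carried the transcripts of monocytic cells in both conditions. SPI1, the myeloid master regulator, had 324 and 315 CPM in PMA, against 143 and 126 CPM in DMSO. Levels of CSF1R, the receptor of macrophage colony-stimulating factor, were 684 and 651 CPM in PMA, against 37.6 and 38.7 CPM in DMSO, and CD68 had 1209 and 1082 CPM in PMA, against 207 and 183 CPM in DMSO. CD14, the lipopolysaccharide co-receptor, rose to 17.3 and 9.50 CPM in PMA, against 3.54 and 2.34 CPM in DMSO (log2 fold change 2.19, SE 0.40). The integrin gene ITGAM (CD11b), the surface marker of such differentiation, rose to 198 and 216 CPM, against 16.4 and 17.6 CPM in DMSO (log2 fold change 3.60, SE 0.26). In each of these 5 genes both PMA libraries lay above both DMSO libraries. They are the 5 rises in a list of 12 monocyte identity genes, of which 4 fell (CEBPA, LYZ, MPO and ELANE) and 3 were not called (CD33, CD4 and FCGR1A), at a median log2 fold change of 0.32. Of 30 markers of other cell types, 12 passed the filter on low counts, and their summed level with the remaining 18 was 75.8 and 51.7 CPM in PMA, against 14.6 and 13.1 CPM in DMSO. GNLY, of cytotoxic lymphocytes, was the largest item (46.6 and 23.9 CPM in PMA, against 2.17 and 0.865 CPM in DMSO), and PPBP, of platelets, had 10.5 and 6.52 CPM in PMA with no count in DMSO. The defining markers CD3D, CD3E, MS4A1 and PF4 had no count in any of the 4 libraries.

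**Figure D1:**
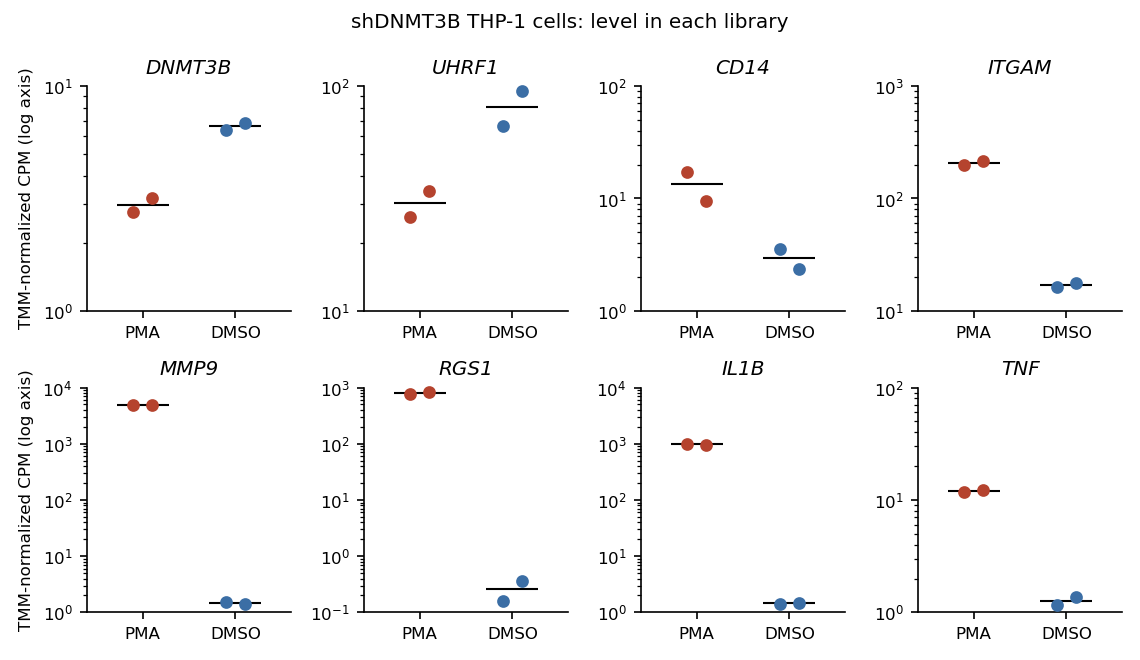
Level of 8 genes in the 4 libraries labelled shDNMT3B, in TMM-normalized CPM on log axes that differ between panels. Points are libraries and lines the mean of 2. DNMT3B and UHRF1 were lower and the other 6 genes higher in PMA than in DMSO, with no overlap in any panel; RGS1 had 753 and 830 CPM in PMA, against 0.159 and 0.356 CPM in DMSO.

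Total counts were 21061373 and 13883556 in PMA and 21591459 and 15378974 in DMSO. PMA replicate 2 was the smallest library of the series, whose totals ran from 13883556 to 23151864. Mitochondrially encoded genes took 19.5% and 9.35% of the counts in PMA and 29.0% and 14.5% in DMSO. The PMA libraries of the other lines held 3.92% to 10.3%. On the first principal component of all 16 libraries, which carried 74.7% of the variance and parted PMA from DMSO, the PMA libraries labelled shDNMT3B stood at 79.9 and 82.8 and those of the other 3 lines between 97.1 and 130.

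PMA raised 2932 genes by more than 1 on the log2 scale (17.8% of the genes tested) and lowered 2183 (13.2%) in the libraries labelled shDNMT3B. Without the fold limit 4157 genes rose (25.2%) and 3253 fell (19.7%). Protein-coding genes gave 2543 of the rises and 1696 of the falls, while among 1954 long noncoding RNAs the falls were the more numerous, with 299 rises and 374 falls. The split depends on the scaling: upper-quartile factors moved the median log2 fold change of all genes to -0.22, against 0.02 with TMM, and gave 2441 rises and 2978 falls. DESeq2 gave 2792 and 2227, and without 1 of the 4 libraries the rises ran from 2502 to 3041 and the falls from 1759 to 2124.

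Many of the largest rises were of genes without a single count in DMSO. TM4SF19, a membrane protein of the L6 family, had 656 and 438 CPM in PMA and was at least 7180-fold higher, taking 3 counts over the DMSO group as the floor. The same bound was at least 1297-fold for CHST15, which sulfates chondroitin chains, and at least 1290-fold and 1146-fold for the monocyte chemoattractants CCL7 and CCL8. ANKRD1, a muscle ankyrin repeat protein, was at least 716-fold higher, the integrin subunit gene ITGB3 at least 527-fold and the matrilysin gene MMP7 at least 423-fold. The long noncoding RNA LINC01010 and the actin-binding repeat gene XIRP1 followed, at least 434-fold and 364-fold higher. RPLP0P2 (32.8 and 17.5 CPM in PMA, no count in DMSO) is a pseudogene close in sequence to RPLP0, and how the count assigned such reads is uncertain. Others had 1 to 3 counts in DMSO, where the ratio is loose: CHIT1, the chitinase of activated macrophages and named after its values were seen, had 3423 counts in PMA and 1 in DMSO, a ratio of 4176 with a 95% counting interval from 749 to 1.65e+05. For AIM2, a cytosolic DNA sensor, the ratio was 800 (221 to 6611).

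Genes of granulocyte and monocyte precursors were among those that fell most. MS4A3, a marker of granulocyte-monocyte progenitors, dropped to 0.857 and 0.780 CPM in PMA, against 266 and 183 CPM in DMSO (log2 fold change -8.08, SE 0.40). S100A9, a calgranulin, had 0.286 and 0.284 CPM in PMA, against 36.2 and 42.3 CPM in DMSO, and its partner S100A8 had 0.114 and 0.213 CPM, against 31.1 and 12.4 CPM. MIR9-3HG, the host transcript of a miR-9 gene, had 0.228 and 0 CPM in PMA, against 31.2 and 29.6 CPM in DMSO. None of these genes overlapped between the conditions. HP, which encodes haptoglobin, had 1 count in PMA and 210 in DMSO, a level in DMSO 172 times that in PMA after scaling (95% counting interval 30.6 to 6830). The T cell receptor constant genes TRGC1 and TRGC2, near-identical copies between which reads can be split, fell together: TRGC1 had 3 counts in PMA and 703 in DMSO, a level in DMSO 192 times that in PMA after scaling (95% counting interval 65.5 to 934).

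Genes of iron storage and of the lysosome were among the 10 largest gains in mean CPM. FTH1, the ferritin heavy chain, reached 20404 and 21652 CPM in PMA, against 1087 and 942 CPM in DMSO, and FTL, the light chain, 22358 and 23342 CPM, against 8547 and 6680 CPM. CHI3L1, a secreted chitinase-like protein, had 11761 and 9892 CPM in PMA, against 1418 and 1440 CPM in DMSO. The lysosomal proteases CTSD (7861 and 5864 CPM in PMA, against 622 and 461 CPM in DMSO) and CTSL (5697 and 4987 CPM, against 74.9 and 70.0 CPM) were next to the gelatinase gene MMP9, which had 4904 and 4787 CPM in PMA and 1.53 and 1.43 CPM in DMSO (log2 fold change 11.67, SE 0.69, adjusted p = 3.68e-08). PLIN2, the coat protein of lipid droplets, had 4629 and 4520 CPM in PMA, against 156 and 158 CPM in DMSO. Among the 10 largest losses were azurophil granule proteases and a gene of translation. CTSG, cathepsin G, had 66.0 and 45.7 CPM in PMA, against 1726 and 1251 CPM in DMSO. PRTN3, proteinase 3, had 129 and 65.9 CPM, against 1879 and 980 CPM, and RPS2, a ribosomal protein gene, 1334 and 1457 CPM, against 3591 and 2880 CPM.

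The feedback inhibitors of ERK rose almost throughout. Of 10 protein kinase C and D genes tested, 2 rose and 2 fell, near the shares over all genes tested (25.2% and 19.7%). Without DMSO replicate 1 neither rise held (PRKCA, adjusted p = 0.298, and PRKCH, adjusted p = 0.0660), the rise of PRKCA was lost under most other alternatives too, and the fall of PRKCZ was lost without PMA replicate 1 (adjusted p = 0.0518). PRKCD, the delta isoform, had 141 and 155 CPM in PMA, against 120 and 151 CPM in DMSO (log2 fold change 0.13, SE 0.23), and PRKCQ, the theta isoform, fell to 3.998 and 3.26 CPM, against 7.82 and 7.94 CPM. The genes RASGRP2 and RASGRP3, of exchange factors for RAS-family GTPases, went in opposite directions. RASGRP2 had 6.85 and 8.65 CPM in PMA, against 73.8 and 87.0 CPM in DMSO, and RASGRP3 24.2 and 22.1 CPM, against 1.74 and 1.32 CPM. In the list of ERK feedback inhibitors, 13 of 14 genes rose and none fell, with a median log2 fold change of 2.13, against 0.02 over all genes tested. DUSP6, the phosphatase of ERK, reached 867 and 850 CPM in PMA, against 24.3 and 25.7 CPM in DMSO, and DUSP1 123 and 126 CPM, against 0.846 and 1.68 CPM. SPRY2, which blocks RAS activation, had 133 and 184 CPM, against 5.92 and 11.1 CPM. SPRY1, at 3.94 and 3.76 CPM in PMA and 1.96 and 2.34 CPM in DMSO, missed the threshold (adjusted p = 0.0756), and passed it in the fit with the replicate number as a block (adjusted p = 0.0330).

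AP-1 and EGR genes, the immediate nuclear targets of this pathway, rose in 17 of 22 cases and fell in 2 (median log2 fold change 2.62). EGR2 had 145 and 167 CPM in PMA, against 0.211 and 0.356 CPM in DMSO, and ATF3 had 397 and 431 CPM, against 3.17 and 3.21 CPM. BATF3 fell, to 6.05 and 6.31 CPM in PMA, against 22.3 and 15.8 CPM in DMSO. Of 36 myeloid transcription factors, 20 rose and 6 fell. The repressors BCL6 (213 and 219 CPM in PMA, against 3.65 and 3.87 CPM in DMSO) and BHLHE40 (72.5 and 79.3 CPM, against 2.96 and 3.31 CPM) were among the rises, and the progenitor factor GFI1 (35.6 and 34.5 CPM, against 166 and 177 CPM) and the monocyte factor IRF8 (46.6 and 62.8 CPM, against 203 and 235 CPM) among the falls. SPIB, an ETS factor related to SPI1, had 1.31 and 0.638 CPM in PMA, against 8.83 and 6.06 CPM in DMSO.

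The program of the MLL-AF9 fusion fell in part. Of 18 tested genes 8 fell and 2 rose, beside 19.7% and 25.2% of all genes tested, at a median log2 fold change of -0.34. Only 5 fell without PMA replicate 1. MYB, which keeps these leukemia cells dividing, had 28.5 and 32.0 CPM in PMA, against 276 and 287 CPM in DMSO (log2 fold change -3.22, SE 0.25, adjusted p = 3.54e-07). HOXA10, a homeobox gene of the fusion's core targets, had 26.2 and 25.9 CPM, against 62.2 and 59.3 CPM, and BCL2, an inhibitor of apoptosis, 24.2 and 25.4 CPM, against 58.7 and 58.1 CPM.

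Macrophage genes rose almost throughout. Of 42 tested macrophage markers 40 rose and 1 fell, at a median log2 fold change of 4.59, beside the 25.2% of all genes tested that rose and the 19.7% that fell. SPP1, osteopontin, reached 1212 and 1176 CPM in PMA, against 0.211 and 0.509 CPM in DMSO (log2 fold change 11.66, SE 0.48). LPL, lipoprotein lipase, had 1034 and 998 CPM in PMA, against 21.8 and 17.8 CPM in DMSO, and CD163, the hemoglobin scavenger receptor, had 18.4 and 19.996 CPM, against 0 and 0.102 CPM. The scavenger CD36, which takes up oxidized lipoproteins, rose to 463 and 455 CPM, against 6.92 and 9.47 CPM (log2 fold change 5.804, SE 0.25). MRC1, the mannose receptor, had no count in any of the 4 libraries, and the complement genes C1QA, C1QB and C1QC stayed under the filter with at most 9 counts in a library. In the list of scavenger and apoptotic cell receptors 17 of 25 tested genes rose and 1 fell. The rises included AXL (101 and 75.8 CPM in PMA, against 1.64 and 1.32 CPM in DMSO) and HAVCR2, or TIM-3 (513 and 395 CPM, against 1.00 and 1.22 CPM). The fall was that of GAS6, the ligand of AXL, to 44.04 and 40.8 CPM, against 264 and 245 CPM. Among 53 lysosome genes 49 rose and none fell, at a median log2 fold change of 1.54; they include CTSB (3560 and 3481 CPM in PMA, against 142 and 140 CPM in DMSO) and the cholesterol exporter gene NPC1 (129 and 126 CPM, against 12.95 and 14.4 CPM).

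**Figure D2:**
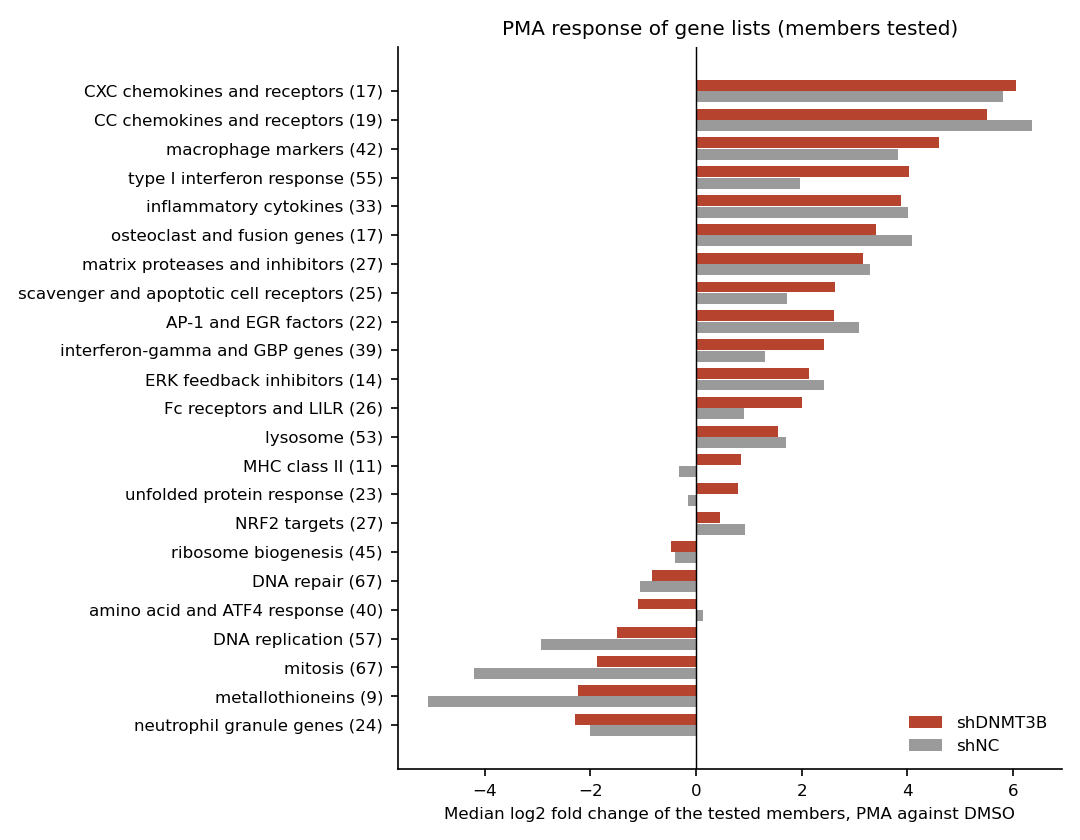
Median log2 fold change of PMA against DMSO over the tested members of 23 gene lists, in the lines labelled shDNMT3B and shNC. Bars for shDNMT3B lie above those for shNC; the number of members tested stands in parentheses. In shDNMT3B the medians run from -2.29 for neutrophil granule genes to 6.06 for CXC chemokines and receptors, beside 0.02 over all genes; lists were chosen with earlier results known.

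Genes of attachment and of matrix turnover rose with them. Of 24 integrin genes 15 rose and 2 fell. ITGAX (CD11c) had 588 and 591 CPM in PMA, against 19.03 and 21.2 CPM in DMSO, and ITGB7, the partner of the alpha-4 and alpha-E subunits, 151 and 170 CPM, against 0.952 and 1.93 CPM. Of 31 genes of adhesion and the cytoskeleton 23 rose, such as ICAM1 (133 and 160 CPM in PMA, against 5.18 and 7.99 CPM in DMSO), and 2 fell, of which SELPLG, the selectin ligand of circulating leukocytes, had 9.82 and 6.95 CPM in PMA, against 60.2 and 50.6 CPM in DMSO. Matrix proteases and their inhibitors rose in 19 of 27 cases. MMP19 had 413 and 375 CPM in PMA, against 2.96 and 2.70 CPM in DMSO, and the inhibitor TIMP3 had 856 and 622 CPM, against 89.5 and 75.8 CPM. MMP15, a membrane-bound member, fell to 5.998 and 5.32 CPM, against 33.1 and 23.005 CPM. The urokinase receptor PLAUR reached 1192 and 914 CPM, against 30.2 and 26.8 CPM, while F13A1, the clotting factor XIII subunit of monocytes, had 1 count in PMA and 136 in DMSO, a level in DMSO 111 times that in PMA after scaling (95% counting interval 19.7 to 4435). All 17 tested genes of osteoclasts and cell fusion had positive values and 15 rose, among them DCSTAMP, which drives fusion (115 and 85.1 CPM in PMA, against 0.211 and 0.254 CPM in DMSO).

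Genes of lipid handling rose in 21 of 30 cases and fell in 3. FABP4, a fatty acid carrier and PPARG target, had 2106 and 1466 CPM in PMA, against 3.12 and 3.003 CPM in DMSO. Cholesterol synthesis had 6 rises and 7 falls among 25 genes, near the shares over all genes tested (25.2% and 19.7%). SQLE, squalene epoxidase, rose to 251 and 242 CPM in PMA, against 12.9 and 16.4 CPM in DMSO, and INSIG1, the brake on sterol regulation, to 129 and 106 CPM, against 15.5 and 14.4 CPM. ACAT2, at the head of the pathway, fell to 19.7 and 16.4 CPM, against 72.3 and 50.7 CPM. Of 17 iron genes 10 rose, including the endosomal metal transporter gene SLC11A1 (115 and 133 CPM in PMA, against 9.20 and 7.89 CPM in DMSO) and HMOX1, the heme-degrading oxygenase, which is also a target of NRF2 (3660 and 2654 CPM, against 14.7 and 12.8 CPM).

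Secreted signals were among the lists with the highest medians. CXC chemokines and their receptors had a median log2 fold change of 6.06, with 14 of 17 rising, and CC chemokines and receptors one of 5.50, with 13 rises and 3 falls in 19. CXCL8, interleukin 8, reached 923 and 726 CPM in PMA, against 1.06 and 1.98 CPM in DMSO, CCL2 257 and 178 CPM, against 0.317 and 0.153 CPM, and CCL20 360 and 275 CPM, against 2.17 and 1.02 CPM. Their receptors moved the other way in part: CXCR2, the interleukin 8 receptor of neutrophils, fell to 0.971 and 1.28 CPM, against 10.7 and 6.26 CPM. CCR2, the receptor of CCL2 on classical monocytes, fell to 5.20 and 5.53 CPM, against 27.4 and 25.9 CPM, whereas CCR1 rose to 199 and 165 CPM, against 20.7 and 19.2 CPM.

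Of 33 inflammatory cytokine genes 25 rose and 3 fell. IL1B, the inflammasome substrate, had 1000 and 941 CPM in PMA, against 1.43 and 1.48 CPM in DMSO (log2 fold change 9.38, SE 0.35, adjusted p = 1.03e-09), and its receptor antagonist IL1RN had 2301 and 1748 CPM, against 21.7 and 16.1 CPM. TNF had 11.7 and 12.2 CPM in PMA, against 1.16 and 1.37 CPM in DMSO, and CSF1, the growth factor read by CSF1R, 305 and 286 CPM, against 1.64 and 3.003 CPM. IL6 stayed under the filter, at 0.171 and 0.284 CPM in PMA and without a count in DMSO. NF-kB genes rose in 18 of 28 cases, among them TRAF1 (30.8 and 34.2 CPM in PMA, against 2.70 and 2.60 CPM in DMSO). Of 22 inflammasome genes 11 rose and 2 fell; the sensor IFI16 had 283 and 303 CPM in PMA, against 6.82 and 5.24 CPM in DMSO, and NLRP12, a dampening member of the family, 0.171 and 0.567 CPM, against 3.44 and 4.12 CPM. RGS proteins, which switch off the G proteins of chemokine receptors, rose in 6 and fell in 3 of 14 cases, beside 25.2% and 19.7% of all genes tested. The rises were led by RGS1 (log2 fold change 11.54, SE 0.60) and RGS2 (420 and 396 CPM in PMA, against 4.33 and 4.48 CPM in DMSO).

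Genes of innate recognition rose more often than they fell. Toll-like receptors and their adaptors gave 13 rises and 1 fall in 19, with TLR2 at 208 and 173 CPM in PMA, against 28.4 and 38.9 CPM in DMSO, and MYD88, the shared adaptor, at 172 and 172 CPM, against 12.8 and 17.97 CPM. IRAK3, which restrains this pathway, fell to 35.9 and 37.4 CPM, against 72.5 and 97.2 CPM. Of 22 complement genes 16 rose, most of all the anaphylatoxin receptor C5AR1 (344 and 297 CPM in PMA, against 1.37 and 0.763 CPM in DMSO). Fc receptors and leukocyte immunoglobulin-like receptors gave 18 rises and 5 falls in 26, with FCAR, the IgA receptor, at 9.94 and 11.4 CPM, against 0.264 and 0.763 CPM, and LILRA2 at 4.11 and 3.76 CPM, against 42.7 and 35.7 CPM. In the phagocyte oxidase, NCF1 had 543 and 509 CPM in PMA, against 23.1 and 14.8 CPM in DMSO, though NCF1 shares its sequence with pseudogene copies. CYBB, the catalytic subunit, had 33.2 and 31.9 CPM, against 4.02 and 4.73 CPM, and NCF4 fell to 28.8 and 29.1 CPM, against 60.3 and 57.3 CPM.

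Neutrophil granule genes fell in 16 of 24 cases and rose in 3, at a median log2 fold change of -2.29. Besides CTSG and PRTN3, ELANE, neutrophil elastase, had 114 and 63.2 CPM in PMA, against 1401 and 765 CPM in DMSO, and MPO, myeloperoxidase, 0.343 and 0.284 CPM, against 5.39 and 5.85 CPM. LYZ, the lysozyme of both lineages, fell to 16.1 and 12.3 CPM, against 81.6 and 67.9 CPM. The rises were MMP9, already described, PRG2, an eosinophil granule protein (141 and 143 CPM in PMA, against 2.06 and 1.73 CPM in DMSO), and MMP8, the neutrophil collagenase, which had 3.31 and 3.55 CPM in PMA and no count in DMSO.

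Every one of the 55 tested genes of the type I interferon response rose, beside 25.2% of all genes tested, at a median log2 fold change of 4.03. These genes answer the factor ISGF3, which binds an interferon-stimulated response element (ISRE) in their promoters, and their products block viral RNA and protein synthesis. Promoters of 2 of them are shown because of the element: the 250 bases that precede the gene start in RefSeq (GRCh38.p14) are written 5′ to 3′ on the strand of the gene, and capitals mark the core of the ISRE (GAAA, 2 bases of any kind, GAAA) or its reverse complement.
IFI44: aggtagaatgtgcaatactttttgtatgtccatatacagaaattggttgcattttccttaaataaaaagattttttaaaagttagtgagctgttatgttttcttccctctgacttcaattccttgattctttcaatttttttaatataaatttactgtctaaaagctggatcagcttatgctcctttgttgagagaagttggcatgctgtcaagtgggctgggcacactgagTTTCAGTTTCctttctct
OAS3: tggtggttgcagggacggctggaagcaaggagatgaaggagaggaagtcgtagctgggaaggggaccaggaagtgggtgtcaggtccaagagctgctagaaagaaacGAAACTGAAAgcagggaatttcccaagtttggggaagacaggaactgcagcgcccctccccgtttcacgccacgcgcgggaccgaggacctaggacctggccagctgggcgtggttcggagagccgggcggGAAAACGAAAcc
The first lies at chr1:78649539-78649788 on the plus strand, with the element 18 to 9 bases before the start, and the second at chr12:112938224-112938473 on the plus strand, with elements 143 to 134 and 12 to 3 bases before the start. In windows of 300 bases (250 before and 50 after the start, both strands searched) the core occurred in 27 of the 44 promoters of the list found in RefSeq (61.4%), in 11 of 27 of the interferon-gamma and GBP list (40.7%), in 5.03% of the promoters of genes that rose by more than 1, in 2.94% of those of all tested genes and in 3.65% of all RefSeq promoters. A match of letters is no evidence that a factor is bound there.

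IFI44, of unknown function in the interferon response, had 260 and 222 CPM in PMA, against 1.11 and 1.22 CPM in DMSO (log2 fold change 7.68, SE 0.26, adjusted p = 7.03e-10). OAS3, which makes the oligoadenylates that activate RNase L, had 748 and 795 CPM, against 15.9 and 16.3 CPM. The dynamin-like GTPase gene MX1 had 467 and 503 CPM in PMA, against 4.39 and 5.598 CPM in DMSO, and MX2 341 and 324 CPM, against 5.13 and 4.33 CPM. IFIT2 had 192 and 192 CPM, against 2.75 and 2.29 CPM. All these DMSO values lie far under the PMA values. Summed over the list, the level was 18895 and 16719 CPM in PMA, against 1486 and 1293 CPM in DMSO. The interferon-gamma and GBP list rose in 32 of 39 cases, with GBP1, a guanylate-binding protein, at 113 and 109 CPM in PMA, against 0.159 and 0.153 CPM in DMSO. CXCL10, an interferon-induced chemokine, had 224 and 154 CPM, against 4.92 and 3.41 CPM.

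Genes of MHC class I and peptide loading rose in 16 of 21 cases and none fell, led in amount by B2M, the invariant light chain, at 5831 and 4187 CPM in PMA, against 743 and 569 CPM in DMSO. HLA-E, a nonclassical class I gene, had 1386 and 1293 CPM, against 95.5 and 98.4 CPM. HLA genes resemble each other closely, so that reads may be shared between them. MHC class II rose in 6 of 11 cases, and in 2 without PMA replicate 1. CIITA, the master regulator of class II, had 0.685 and 1.06 CPM in PMA, against 1.16 and 1.37 CPM in DMSO, and CD74, the invariant chain, 466 and 289 CPM, against 348 and 246 CPM; for neither did the difference pass the test (adjusted p = 0.274 and 0.489), though CD74 passed in the fit with the replicate block (adjusted p = 0.0391).

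Cell cycle genes fell, and no member rose: 64 of 67 tested mitosis genes and 55 of 57 DNA replication genes fell, at median log2 fold changes of -1.86 and -1.50. In bulk RNA fewer cycling cells and less of such RNA in each cell cannot be told apart. Many mitotic genes share a promoter of CCAAT boxes and a cell cycle homology region (CHR), which the DREAM complex occupies in resting cells. Promoters of a pair of mitosis genes, among the 10 with the smallest adjusted p for a higher response than in shNC, are given in the same form (250 bases before the RefSeq start, GRCh38.p14), with the CHR TTTGAA and the CCAAT box CCAAT, or their reverse complements, in capitals.
CDC20: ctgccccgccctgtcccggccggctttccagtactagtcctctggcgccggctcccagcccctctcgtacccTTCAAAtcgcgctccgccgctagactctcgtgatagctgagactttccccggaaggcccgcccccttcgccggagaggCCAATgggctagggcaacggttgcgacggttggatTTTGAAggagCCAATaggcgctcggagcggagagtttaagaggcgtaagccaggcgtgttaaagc
ZWINT: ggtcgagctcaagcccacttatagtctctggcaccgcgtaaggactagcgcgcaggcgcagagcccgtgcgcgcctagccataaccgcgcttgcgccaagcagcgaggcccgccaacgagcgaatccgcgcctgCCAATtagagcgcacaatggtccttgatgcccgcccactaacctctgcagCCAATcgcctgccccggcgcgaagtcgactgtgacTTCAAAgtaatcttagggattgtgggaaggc
The first is chr1:43358731-43358980 on the plus strand, where the CHR lies 178 to 173 and 65 to 60 and the CCAAT box 100 to 96 and 55 to 51 bases before the start. The second is chr10:56361260-56361509 on the minus strand, with the CHR 31 to 26 and CCAAT 116 to 112 and 66 to 62 bases before the start. In the windows of 300 bases the CHR occurred in 34 of 56 mitosis promoters (60.7%) but in 3 of 49 promoters of DNA replication (6.12%), 10.1% of those of all tested genes and 15.4% of all in RefSeq. CCAAT occurred in 69.6%, 59.2%, 36.6% and 35.7% of these 4 sets.

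CDC20, the activator of the anaphase-promoting complex (chromosome 1, 43358981 to 43363203), fell to 64.0 and 62.8 CPM in PMA, against 457 and 423 CPM in DMSO (log2 fold change -2.79, SE 0.17, adjusted p = 4.05e-08). ZWINT, which holds checkpoint proteins at the kinetochore, fell to 21.1 and 24.0 CPM, against 118 and 116 CPM. CCNB1, the mitotic cyclin, had 26.6 and 27.1 CPM in PMA, against 102 and 109 CPM in DMSO. The replicative helicase genes MCM2 (33.6 and 36.7 CPM in PMA, against 168 and 163 CPM in DMSO) and MCM3 (85.7 and 96.0 CPM, against 465 and 523 CPM) and the origin licensing factor CDC6 (13.3 and 12.8 CPM, against 51.0 and 51.7 CPM) fell as well. The summed level of the mitosis list was 1122 and 1144 CPM in PMA, against 4430 and 4191 CPM in DMSO, and that of the replication list 1272 and 1325 CPM, against 4318 and 4249 CPM. Of 67 DNA repair genes 39 fell and 3 rose; RAD54L, of homologous recombination, had 6.68 and 7.80 CPM in PMA, against 41.6 and 42.5 CPM in DMSO, and XRCC1, of base excision repair, rose to 141 and 123 CPM, against 50.5 and 40.9 CPM. Among G1 control genes, 15 of 28 fell and 4 rose, beside 19.7% and 25.2% of all genes tested. The falls included the phosphatase gene CDC25A (8.85 and 7.23 CPM in PMA, against 62.9 and 43.1 CPM in DMSO). The CDK inhibitor gene CDKN1A rose to 636 and 797 CPM, against 13.5 and 19.2 CPM, and the cyclin gene CCND1 to 243 and 245 CPM, against 7.93 and 6.92 CPM. In the apoptosis list 17 of 32 genes rose, among them BCL2A1 (287 and 207 CPM, against 1.53 and 1.02 CPM) and MCL1 (679 and 648 CPM, against 168 and 175 CPM), both of which encode inhibitors of cell death.

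The amino acid and ATF4 response fell in 27 of 40 cases and rose in 5, at a median log2 fold change of -1.10. ATF4 is the transcription factor that cells translate when amino acids run short or the endoplasmic reticulum is under stress, and it turns on amino acid synthesis and transport through a C/EBP-ATF response element. The promoter of CHAC1, a glutathione-degrading enzyme of this program, is shown with the element TGATGNAA (reverse complement) in capitals.
CHAC1: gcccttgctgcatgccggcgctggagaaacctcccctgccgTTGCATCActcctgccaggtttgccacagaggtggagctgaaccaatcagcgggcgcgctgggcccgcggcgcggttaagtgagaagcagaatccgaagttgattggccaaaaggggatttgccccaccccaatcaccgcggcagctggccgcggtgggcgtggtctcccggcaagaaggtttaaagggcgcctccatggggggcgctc
These 250 bases are chr15:40953221-40953470 on the plus strand, and the element lies 209 to 202 bases before the start. The letters occurred in 10 of 34 promoters of the list (29.4%), in 2.82% of those of genes that fell by more than 1, in 1.83% of those of all tested genes and in 3.67% of all in RefSeq.

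CHAC1 had 3.37 and 4.33 CPM in PMA, against 46.6 and 36.8 CPM in DMSO (log2 fold change -3.44, SE 0.21, adjusted p = 5.09e-08). PSAT1, of serine synthesis, had 37.8 and 35.2 CPM, against 286 and 289 CPM, and TRIB3, a pseudokinase that feeds back on ATF4, 30.1 and 30.1 CPM, against 169 and 153 CPM. SESN2, a leucine sensor that restrains mTORC1, fell to 17.3 and 16.6 CPM, against 46.8 and 42.3 CPM, and DDIT4, another brake on mTORC1, to 26.8 and 26.1 CPM, against 52.9 and 58.2 CPM. The 5 rises (3 without DMSO replicate 1) included ATF3, described with AP-1, and CEBPB, whose product pairs with ATF4 (479 and 271 CPM in PMA, against 43.6 and 22.1 CPM in DMSO). The summed level of the list was 4759 and 4364 CPM in PMA, against 6958 and 6332 CPM in DMSO. Genes of the unfolded protein response, which belong to the other arms of that stress pathway, rose in 14 of 23 cases and fell in 1, with the chaperone PDIA4 at 272 and 240 CPM in PMA, against 100 and 104 CPM in DMSO. NRF2 targets gave 12 rises and 5 falls in 27, beside 25.2% and 19.7% of all genes tested. The exporter gene ABCC3 rose to 73.7 and 79.1 CPM, against 1.43 and 0.713 CPM, and the aldo-keto reductase gene AKR1C2 fell to 22.0 and 19.4 CPM, against 220 and 202 CPM; AKR1C genes are close copies and may share reads. Of 9 genes in the metallothionein list 6 fell and 2 rose, and the falls include MT1G (1.599 and 1.06 CPM in PMA, against 93.3 and 43.8 CPM in DMSO), while MTF1, the zinc-sensing factor that drives them, rose to 51.7 and 49.1 CPM, against 25.3 and 21.7 CPM.

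In the DNA methylation machinery 7 of 21 genes fell and 4 rose (2 without DMSO replicate 1), beside 19.7% and 25.2% of all genes tested, with a median log2 fold change of 0.05. UHRF1, which leads the maintenance methyltransferase to hemimethylated DNA (chromosome 19, 4903080 to 4962154), had 26.2 and 34.0 CPM in PMA, against 66.2 and 94.9 CPM in DMSO (log2 fold change -1.42, SE 0.26, adjusted p = 7.74e-04). CDCA7, a partner of the remodeler HELLS, had 8.85 and 10.2 CPM, against 54.8 and 79.3 CPM. DNMT3A, the other de novo methyltransferase, rose to 39.8 and 36.6 CPM, against 21.2 and 18.3 CPM (log2 fold change 0.95, SE 0.18). DNMT1, the maintenance enzyme, had 70.4 and 102 CPM in PMA, against 73.3 and 102 CPM in DMSO (log2 fold change -0.03, SE 0.30, adjusted p = 0.950), with overlapping groups. TET1, a demethylating dioxygenase, had 0.857 and 0.284 CPM in PMA, against 2.38 and 2.90 CPM in DMSO (adjusted p = 0.0143), and lost its call without DMSO replicate 2 (adjusted p = 0.0538) or PMA replicate 2 (adjusted p = 0.120). Of 39 germline genes, which DNA methylation keeps silent in somatic cells, 10 passed the filter, 4 fell (2 to 3 without 1 library) and none rose. Imprinted genes gave 6 rises and 6 falls in 23 (2 rises without DMSO replicate 1), near the shares over all genes, among the falls GRB10, an adaptor of growth factor receptors (12.4 and 13.3 CPM in PMA, against 55.3 and 48.8 CPM in DMSO).

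Beside the 25.2% of all tested genes that rose and the 19.7% that fell, ribosome biogenesis fell in 20 of 45 cases (11 without PMA replicate 2), at a median log2 fold change of -0.47, with the nucleolar phosphoprotein gene NOLC1 at 65.6 and 62.9 CPM in PMA, against 186 and 151 CPM in DMSO. None of the 13 mitochondrially encoded genes was called in the edgeR fit, where none had an unadjusted p under 0.05, or by DESeq2, though each had a negative value. MT-CO3 had 12044 and 4199 CPM in PMA, against 29747 and 9359 CPM in DMSO, where replicate 1 stood far above replicate 2 in both conditions. Without the filter on low counts 4 of the 13 fell: MT-CO3 (adjusted p = 1.31e-04), MT-ATP6, MT-ATP8 and MT-ND6. With the replicate number as a block 9 of these 13 fell, and so did 23 in place of 4 of the 46 nuclear genes of oxidative phosphorylation. Glycolysis and the pentose phosphate pathway gave 11 rises and 10 falls in 34 (3 falls without DMSO replicate 1). PFKFB4, which makes the activator of phosphofructokinase, rose to 164 and 162 CPM in PMA, against 9.67 and 9.26 CPM in DMSO, and HK2, hexokinase 2, to 91.3 and 86.4 CPM, against 14.5 and 18.1 CPM, whereas the glucose transporter gene SLC2A1 fell to 28.6 and 28.6 CPM, against 63.1 and 66.5 CPM.

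The PMA response in the libraries labelled shDNMT3B was next set against that of the control line labelled shNC, with the difference of the 2 responses tested in the same fit. For 838 genes it was higher (5.08% of those tested) and for 280 lower (1.7%). Most of the higher ones, 594, were genes that PMA lowered by more than 1 in shNC. Of the 280 lower ones, 202 were genes that PMA raised there by more than 1. Among all 16503 genes tested, PMA lowered 3276 and raised 3367 by more than 1 in shNC. The difference subtracts the shNC response, so sorting by that response favors such matches in advance, and no conclusion is drawn from them. With the replicate block the counts of higher and lower differences were 2074 and 1150. Without 1 library they ran from 518 to 659 and from 139 to 206, and fell by more than 1.5 times without shDNMT3B PMA replicate 1 (546 and 139) or shNC PMA replicate 1 (518 and 142) or 2 (545 and 151), and the lower count also without shDNMT3B PMA replicate 2 (144), shDNMT3B DMSO replicate 1 or 2 (179 and 176) and shNC DMSO replicate 1 (151). That last library carried hemoglobin transcripts, with HBB at 232 CPM and HBA2 at 184 CPM, of which its partner had no count; of their part in the comparison only the counts without it, 632 and 151, were computed. Of the genes called up by more than 1 the 2 lines shared 2405, which is 82.0% of those of shDNMT3B and 71.4% of those of shNC, and of the genes called down 1830, or 83.8% and 55.9%.

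In the type I interferon list 44 of the 55 genes had a higher PMA response in shDNMT3B and none a lower one. Of all genes tested 5.08% were higher and 1.7% lower. IFI44 had 260 and 222 CPM in PMA against 1.11 and 1.22 CPM in DMSO in shDNMT3B, and 232 and 210 CPM against 76.9 and 53.6 CPM in shNC, a difference of the responses of 5.92 (SE 0.30, adjusted p = 1.33e-06). The levels after PMA were thus close, and those in DMSO far apart. For the whole list the summed level in DMSO was 1486 and 1293 CPM in shDNMT3B, against 6730 and 5752 CPM in shNC, and in PMA 18895 and 16719 CPM, against 24576 and 20827 CPM. The low sum in DMSO was not particular to shDNMT3B. It was 1343 and 1188 CPM in shDNMT1 and 2583 and 2269 CPM in shUHRF1, so that shNC had the highest of the lines. MX1 differed in PMA as well, with 467 and 503 CPM after PMA in shDNMT3B, against 142 and 142 CPM in shNC. CD36 differed on the PMA side too: it reached 463 and 455 CPM in shDNMT3B, against 40.0 and 41.5 CPM in shNC, from similar levels in DMSO (6.92 and 9.47 CPM, against 10.9 and 13.7 CPM), and the difference of the responses was 4.08 (SE 0.30, adjusted p = 1.09e-05). The interferon-gamma and GBP list had 13 of 39 members higher and 2 lower, beside 5.08% and 1.7% of all genes tested. With the block 24 were higher, beside 2074 of all 16503 genes.

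**Figure D3:**
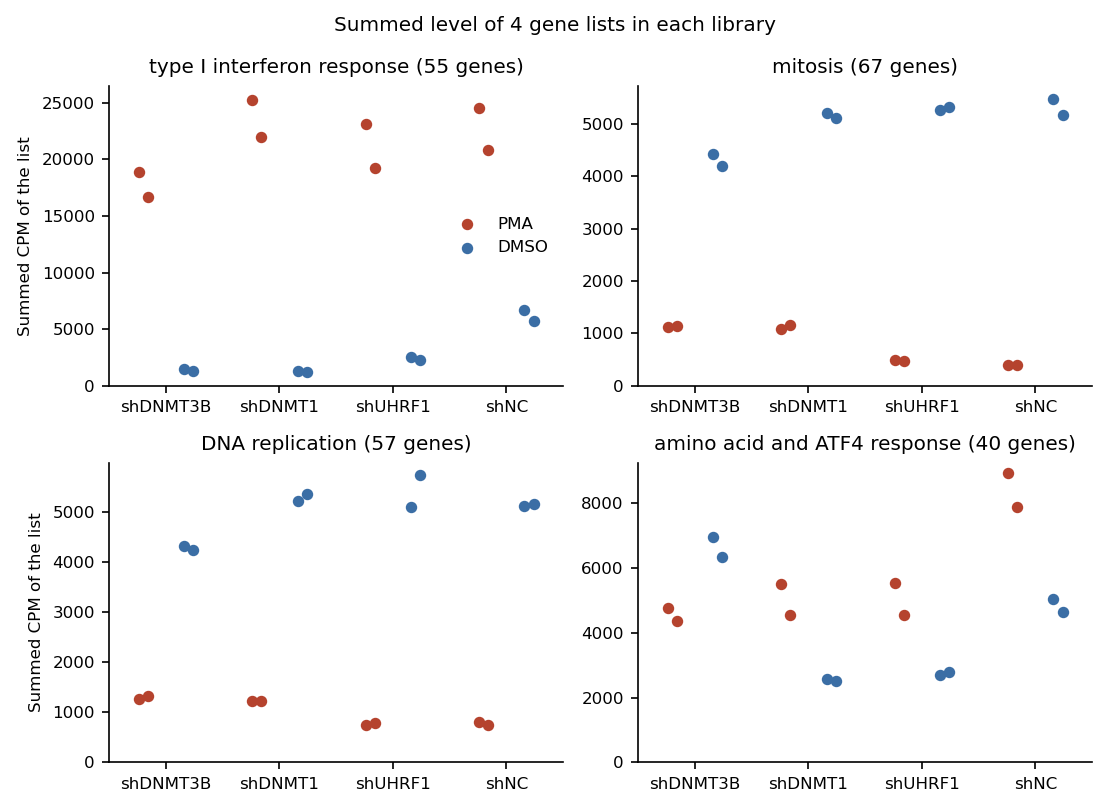
Summed CPM of the tested members of 4 gene lists in each of the 16 libraries, by line, with PMA left of DMSO; each point is a library and each axis starts at 0. In shDNMT3B the interferon sum was 18895 and 16719 CPM in PMA, against 1486 and 1293 CPM in DMSO, and the ATF4 sum was lower in PMA than in DMSO there and higher in the other 3 lines.

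Cell cycle genes fell less than in shNC: 56 of 67 mitosis genes and 30 of 57 DNA replication genes had a higher response in shDNMT3B and none a lower one. The shares over all genes tested were 5.08% higher and 1.7% lower. After PMA, CDC20 had 64.0 and 62.8 CPM in shDNMT3B, against 7.25 and 6.86 CPM in shNC, with 457 and 423 CPM, against 446 and 412 CPM, in DMSO (difference of the responses 3.13, SE 0.23, adjusted p = 1.09e-05). ZWINT had 21.1 and 24.0 CPM after PMA in shDNMT3B, against 4.99 and 4.76 CPM in shNC, and UHRF1, itself a gene of S phase, 26.2 and 34.0 CPM, against 4.62 and 7.43 CPM (difference of the responses 2.71, adjusted p = 9.39e-04). Summed over the mitosis list the level after PMA was 1122 and 1144 CPM in shDNMT3B, against 393 and 398 CPM in shNC. For DNMT3B the difference of the responses was 1.54 (adjusted p = 0.00791), a call that was lost without shNC PMA replicate 1. CCR2 fell less as well, to 5.20 and 5.53 CPM in shDNMT3B, against 1.68 and 1.95 CPM in shNC; in DMSO it had 27.4 and 25.9 CPM, against 81.6 and 76.1 CPM.

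The ATF4 list went the other way, with a lower response in shDNMT3B for 29 of 40 genes and a higher one for 1. Among all genes tested 1.7% were lower and 5.08% higher. SESN2 fell to 17.3 and 16.6 CPM in PMA, against 46.8 and 42.3 CPM in DMSO in shDNMT3B, whereas in shNC it had 52.4 and 52.3 CPM in PMA and 14.4 and 15.6 CPM in DMSO, a difference of the responses of -3.20 (SE 0.20, adjusted p = 4.36e-06). CHAC1 had 3.37 and 4.33 CPM after PMA in shDNMT3B, against 16.3 and 15.4 CPM in shNC, and PSAT1 37.8 and 35.2 CPM, against 125 and 124 CPM. The cystine transporter gene SLC7A11 had 150 and 144 CPM after PMA in shDNMT3B, against 346 and 403 CPM in shNC (difference of the responses -3.28, SE 0.33), and VEGFA, a growth factor of vessels and a known ATF4 target, 153 and 167 CPM, against 773 and 822 CPM. Here both conditions differed between the lines: the summed level of the list was 4759 and 4364 CPM in PMA and 6958 and 6332 CPM in DMSO in shDNMT3B, against 8925 and 7863 CPM in PMA and 5038 and 4638 CPM in DMSO in shNC. The sum was thus lower in PMA than in DMSO in the libraries labelled shDNMT3B, and higher in PMA in those labelled shNC. HBEGF, a ligand of the EGF receptor, rose less, to 51.4 and 51.3 CPM, against 15.1 and 16.2 CPM in DMSO (difference of the responses -2.29, SE 0.23).

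**Figure D4:**
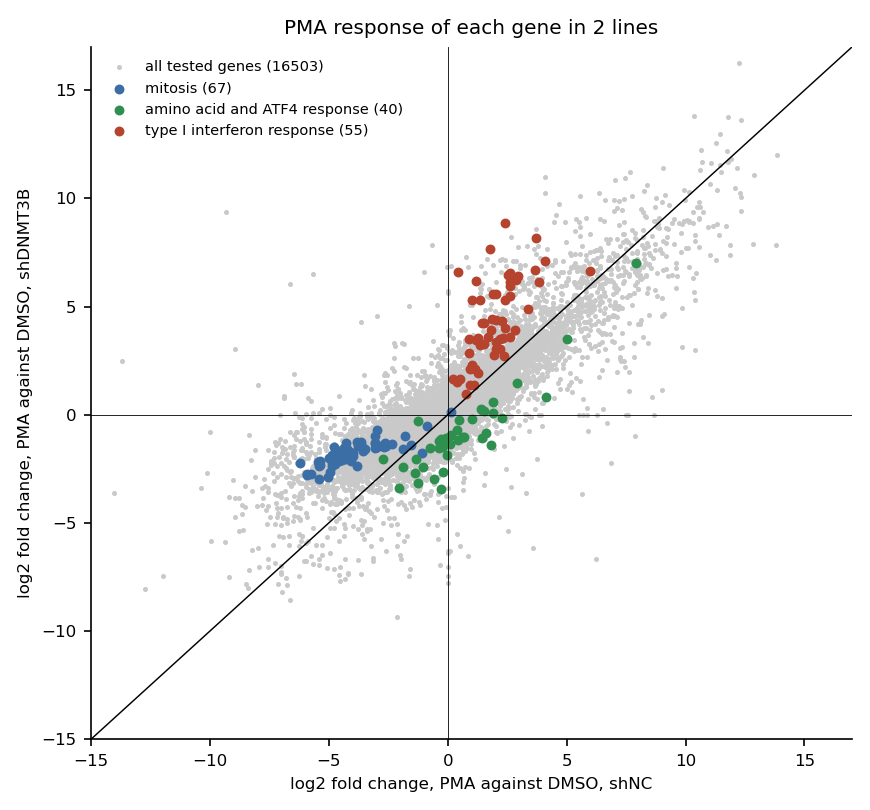
Log2 fold change of PMA against DMSO in the line labelled shDNMT3B (vertical axis) and in that labelled shNC (horizontal axis) for the 16503 tested genes, in log2 units, with the line of equal response. Type I interferon genes (55) lie mostly above that line, mitosis genes (67) above it among the falls, and genes of the amino acid and ATF4 response (40) mostly below it. Values of genes without counts in a group depend on a prior count.

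Against the line labelled shUHRF1 the response in shDNMT3B was higher for 443 genes (2.68%) and lower for 281 (1.7%), and with the block for 1385 and 1115. In the same lists 49 of 67 mitosis genes, 35 of 57 DNA replication genes and 16 of 55 type I interferon genes (29 with the block) were higher and none lower, and 26 of 40 ATF4 genes were lower. SFRP1, a secreted antagonist of WNT and the gene with the smallest adjusted p upward (named after its values were seen), had 7.997 and 7.87 CPM in PMA, against 25.2 and 22.4 CPM in DMSO in shDNMT3B, with a difference of the responses of 2.60 (adjusted p = 7.53e-05). DDIT4 was lower by 3.48 (SE 0.22, adjusted p = 1.01e-05). Both shNC and shUHRF1 were compared with the same 4 libraries labelled shDNMT3B, so these comparisons are not independent. The counts fell by more than 1.5 times without shDNMT3B PMA replicate 1 or 2 (241 and 128, 243 and 123), shDNMT3B DMSO replicate 1 or 2 (278 and 158, 284 and 170) or shUHRF1 PMA replicate 1 or 2 (227 and 157, 273 and 157), and the lower count also without shUHRF1 DMSO replicate 1 (142).

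The fewest differences were called against the line labelled shDNMT1, where 35 genes were higher (0.212%) and 163 lower (0.988%), 740 and 867 with the block, and 7 to 16 and 58 to 95 when any 1 of the 8 libraries was left out. No mitosis or DNA replication gene was called in either direction, but with the replicate block 11 of 67 mitosis genes and 18 of 57 DNA replication genes were higher. The summed level of the mitosis list after PMA was 1122 and 1144 CPM in shDNMT3B, against 1094 and 1169 CPM in shDNMT1. Of the type I interferon list 5 of 55 genes were lower (26 with the block) and none higher. Of the ATF4 list 15 of 40 were lower (27 with the block), with SESN2 lower by 2.52 (SE 0.21, adjusted p = 1.67e-04). RGS2 had the smallest adjusted p upward: it reached 420 and 396 CPM after PMA in shDNMT3B, against 152 and 164 CPM in shDNMT1 (difference of the responses 1.76, SE 0.19, adjusted p = 9.28e-04). PAX8-AS1, a long noncoding RNA (chromosome 2, 113211421 to 113276581), had the smallest downward and showed a lower response than in each line, with 21.8 and 21.9 CPM in PMA, against 2.27 and 2.24 CPM in DMSO in shDNMT3B. In shDNMT1 it had 27.9 and 28.7 CPM in PMA and 0.109 and 0.156 CPM in DMSO, in shUHRF1 113 and 132 CPM and 0.823 and 0.856 CPM, and in shNC 34.4 and 39.8 CPM and 0.473 and 0.425 CPM. Its level in DMSO was thus highest in the libraries labelled shDNMT3B. It overlaps its neighbour PAX8 on the opposite strand, and whether the count used the strand is not given in the sources used here.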

How the data were processed

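RNA was measured by paired-end sequencing (150 bases a read) of poly(A)-selected libraries, 2 in each of 8 groups. The authors deposited raw gene counts, made with STAR 2.4.0b on hg38 and HTSeq 0.6.1p1; the strand setting is not given in the sources used here. Columns were assigned by their names, and 0 columns were left unused. Symbols came from GENCODE release 44.

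Genes were filtered with filterByExpr (minimum count 10, minimum total 15; 16503 of 60676 kept), scaled by TMM and tested with edgeR 4.0.16 (robust quasi-likelihood fit of all 16 libraries and 8 groups, R 4.3.3) with Benjamini-Hochberg adjustment, a threshold of 0.05 and, for counts, a log2 fold limit of 1. Differences between lines were interaction contrasts of that fit. DESeq2 1.42.0, DEGES with an exact test, other scalings and filters, left-out libraries and a replicate block were alternatives. The fit was also run on counts simulated without a replicate effect. That run cannot speak to the pairing described next, and no conclusion is drawn from it. Same-numbered libraries deviated together (28 of 28 pairs of groups correlated over 0.1, from 0.221 to 0.508), so that the numbers pair the samples by this check; the labels do not say what a number marks. The design of the main test is without the block, since the study's methods use none. Every SE and adjusted p given without mention of the block therefore ignores this pairing. The common dispersion was 0.0439 in the main fit and 0.0115 with the block. Intervals of count ratios (95%) cover counting error only.

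Genes named are those the study names; the 10 largest rises and falls (mean of at least 1 CPM, no overlap); the 10 largest gains and losses in mean CPM; from every list the 4 or fewer of smallest adjusted p, with at most 2 called against its majority; the 10 smallest adjusted p in each direction of the difference from shNC; and all members of lists of at most 15 genes. The members and the 55 lists were chosen with earlier results of these data known. Some genes that this rule names are not reported here.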

Additional observations from a re-analysis of the deposited data

Results flagged for a closer look

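The tests of the difference between 2 lines' PMA responses in edgeR singled out 838 genes with a higher and 280 with a lower response in the libraries labelled shDNMT3B than in those labelled shNC. The smallest adjusted p upward was that of IFI44, an interferon-induced gene (log2 difference 5.92, adjusted p = 1.33e-06), and downward that of SESN2, a leucine sensor (log2 difference -3.20, adjusted p = 4.36e-06).

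Against shUHRF1 443 genes were higher and 281 lower. SFRP1, a secreted antagonist of WNT, led upward (log2 difference 2.60, adjusted p = 7.53e-05) and PAX8-AS1, a long noncoding RNA, downward (log2 difference -3.91, adjusted p = 1.01e-05). Against shDNMT1 35 genes were higher and 163 lower, with RGS2, a regulator of G proteins, first upward (log2 difference 1.76, adjusted p = 9.28e-04) and PAX8-AS1 first downward (log2 difference -4.39, adjusted p = 1.08e-04). All 3 comparisons share the 4 libraries labelled shDNMT3B. With 2 libraries a group, no library could be tested as an outlier.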

How the results depend on the processing

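The 2932 rises and 2183 falls in the libraries labelled shDNMT3B stayed within 1.5 times under every alternative run, and no result changed direction. Without 1 library the rises ran from 2502 to 3041 and the falls from 1759 to 2124. The counts of response differences moved more. With the replicate block they were 2074 higher and 1150 lower against shNC, 1385 and 1115 against shUHRF1, and 740 and 867 against shDNMT1. DESeq2 gave 464 lower against shNC, 476 lower against shUHRF1, and 125 higher and 380 lower against shDNMT1. With only the 8 libraries compared in the fit they were 242 and 117 against shUHRF1 and 7 and 64 against shDNMT1, and without the filter on low counts 158 and 345 against shDNMT1. Without 1 library the ranges were 518 to 659 higher and 139 to 206 lower against shNC, 227 to 326 and 123 to 259 against shUHRF1, and 7 to 16 and 58 to 95 against shDNMT1. The left-out fits hold fewer samples; the cause of the other moves was not tested. At an unadjusted p under 0.05 the 3 differences hold 3257, 2758 and 1932 genes in the same order.

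Of the named genes' PMA responses, the block changed 15 calls, all of them gained, upper-quartile factors lost 8, and leaving out 1 library lost 13 to 23. Of 98 named response differences from shNC, leaving out 1 library lost 14 to 22. Of the counts of members that rose or fell in a list, 55 were of 1 to 7 genes and moved by at most 4 genes without 1 library. Of 42 larger counts 3 moved by more than 1.5 times: the falls in the MLL-AF9, glycolysis and ribosome biogenesis lists. With 2 libraries a group, a missed threshold does not show that values are alike.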

Other observations

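Further genes with no count in either DMSO library were named after their values were seen, and none is in the report above. Iron and transport genes among them were HAMP, which encodes the iron hormone hepcidin (at least 145-fold higher in PMA), and SLCO2B1, an organic anion transporter (at least 175-fold). The nuclear receptor gene NR4A3 was at least 164-fold higher, and FCGR3A, which encodes the Fc receptor CD16 of nonclassical monocytes, at least 111-fold. CSF3, the granulocyte growth factor, was at least 49.2-fold higher and TBX21, the T-bet factor of lymphocytes, at least 43.5-fold. FCGR3A has a near-identical copy, FCGR3B, so that its reads cannot be told apart with certainty. Each bound takes 3 counts over the DMSO group as the floor.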
